A study of Mus musculus with 8 samples.

Results

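Mouse embryonic stem (ES) cells whose genome came only from the father were compared with ES cells whose genome came only from the mother. All 3 androgenetic arrays were set against both parthenogenetic arrays, 5 of the 8 arrays of the study. The cells differed in most measured genes. Androgenetic cells had more RNA of paternally expressed imprinted genes, of most measured genes of the WNT, Nodal and BMP, trophectoderm, actin and matrix lists. Parthenogenetic cells had more RNA of the pluripotency network, of X-linked genes and of genes of the amino acid response. They also had more RNA of the 15 measured germ cell genes, but 11 of these were kept through the parthenogenetic arrays alone.

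An imprinted gene is transcribed mainly from the copy inherited from 1 parent, because the other copy was marked by DNA or histone methylation in the egg or the sperm. Androgenetic cells therefore carry 2 paternal copies and lack the maternally expressed copy, and parthenogenetic cells the reverse. Many paternally expressed genes promote growth of the embryo and placenta, and many maternally expressed genes restrain it. Cells of either kind can give rise to ES cell lines, which keep a network of transcription factors around Pou5f1, Sox2 and Nanog active.

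Both kinds of line carried the strain label B6129F1. The androgenetic lines came from androgenetic blastocysts, were labelled female and male with both X and Y chromosomes, and were sampled at passages 6, 7 and 8. The parthenogenetic lines came from blastocysts of activated eggs, were labelled female, and were sampled at passages 6 and 7. The 3 arrays of fertilized ES cells (passages 6, 7 and 8, labelled female and male) were normalized together with the others. In the model they only helped to estimate spread, and they are given beside some results. Neither the number of lines nor the X chromosome count of the androgenetic cells was given in the labels. Nothing in the labels says that passages came from separate lines, so the p-values measure the spread between passages, which may be technical.

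Each sample was read on 1 single-colour array of Illumina's BeadChip format, and a probe counted as detected at a detection p under 0.01. On the 5 arrays, 10894 to 11174 of 25697 probes were detected, and 11961 probes were detected on at least 2 of them. The kept probes with a name represented 8028 genes. Values below are log2 normalized signals of 1 probe per gene, and a difference is androgenetic minus parthenogenetic, with its standard error (SE) from the model. Detection began at a log2 signal of 6.60 to 6.73. Where no array of a group detected a gene, the fold is a lower bound against that signal and is written as at least.

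A gene was called at an adjusted p under 0.05 in limma (two-sided, Benjamini-Hochberg over all kept probes). This was so for 5791 of 8028 genes (72.1%), of which 2797 were higher (34.8%) and 2994 lower (37.3%) in androgenetic cells. The median size of the difference was 0.57 against a median SE of 0.112, and the arrays of the groups did not overlap for 6961 genes (86.7%). At least a 2-fold difference was fitted for 2212 genes (27.6%), 1040 of them higher and 1172 lower. Counts of members are to be read against these shares. A gene kept through the arrays of 1 group alone could hardly differ in the other direction: of 467 genes undetected in androgenetic cells 456 were lower, and of 368 undetected in parthenogenetic cells 339 were higher. Correlations across the kept probes were at least 0.996 within a group and 0.854 to 0.856 between the groups. Fertilized arrays correlated at 0.962 to 0.967 with parthenogenetic and at 0.859 to 0.865 with androgenetic arrays. Names were limited to probes of the authors' own table, so that genes on in androgenetic cells alone could go unnamed. Of the 996 unnamed kept probes, 324 lay outside that table and the rest inside it. Over all 996, 337 were at least 2-fold higher and 168 at least 2-fold lower in androgenetic cells.

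Paternally expressed imprinted genes were mostly higher in androgenetic cells. Of 11 measured paternally expressed genes, 9 were higher in androgenetic cells (34.8% of all genes were) and 0 lower, and the median difference was 3.62, against -0.02 over all genes. Nnat, which encodes the membrane proteolipid neuronatin, read 12.53, 12.26 and 12.52 on the androgenetic arrays and 5.27 and 5.39, below detection, on the parthenogenetic arrays. The groups were far apart, at least 56.0-fold (adjusted p = 1.85e-09). Mest, a hydrolase-like gene of embryonic mesoderm, read 12.27, 11.99 and 12.12 against 6.75 and 6.77. The parthenogenetic signal of Mest lay barely above the start of detection, so its difference of 5.37 ± 0.154 (adjusted p = 1.41e-08) fell to 4.55 without background correction.

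Igf2, the growth factor of the fetus, read 15.05, 15.06 and 15.04 in androgenetic cells and 11.39 and 11.47 in parthenogenetic cells, a 12.3-fold increase (adjusted p = 3.8e-09). Its parthenogenetic signal was well above detection, unlike that of Nnat. Snrpn, a splicing factor gene of the Prader-Willi region, was 15.0-fold higher (13.99, 13.97 and 13.95 against 10.07 and 10.04). Peg3, which encodes a zinc finger protein, and Peg10, a gene derived from a retrotransposon, were detected on none of the parthenogenetic arrays, with increases of at least 13.1-fold for Peg3 and at least 14.0-fold for Peg10. Impact, a regulator of the kinase Gcn2, was 7.88-fold higher. Smaller increases were found for Inpp5f (2.28-fold), of which 1 isoform is known to be imprinted in brain, and for Ndn (2.03-fold), a neighbour of Snrpn.

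Mkrn3 and Dlk1 were the members not called. Mkrn3, a ubiquitin ligase gene of the Snrpn region, read 9.50, 9.53 and 9.42 against 9.48 and 9.51. Dlk1, a transmembrane ligand, read 7.51, 7.33 and 7.41 against 7.06 and 7.60. In both the arrays of the groups overlapped (differences of -0.02 ± 0.0811 and 0.09 ± 0.158), and the sign of each changed under some alternatives. For 8 of the 9 genes that rose, the mean of the fertilized arrays lay between the groups. Ndn was the exception, at 10.05 in fertilized cells, below both.

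Maternally expressed genes went the other way less uniformly. Of 22 measured, 14 were lower (37.3% of all genes were) and 5 higher in androgenetic cells, with a median of -0.52. Grb10, an adaptor that restrains insulin and growth factor signalling, read 6.75, 6.70 and 6.83 in androgenetic cells and 13.14 and 13.13 in parthenogenetic cells. The androgenetic values sat at the start of detection, and the difference of -6.38 ± 0.112 (adjusted p = 1.89e-09) was -5.52 in the authors' deposited table, the smallest over the alternatives. Cdkn1c, an inhibitor of cyclin-dependent kinases, read 8.47, 8.50 and 8.57 against 12.40 and 12.35, a 14.5-fold decrease. Igf2r, the receptor that clears Igf2, was 6.08-fold lower (7.66, 7.47 and 7.58 against 10.10 and 10.24), and Phlda2, a restraint on placental growth, was 5.00-fold lower. Cobl, an actin nucleator beside Grb10, and Slc22a18, a transporter beside Cdkn1c, were detected on no androgenetic array. The decrease was at least 11.4-fold for Cobl and at least 4.47-fold for Slc22a18.

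The other decreases were smaller. Ppp1r9a fell 2.57-fold, Atp10a 2.36-fold and Ddc, the aromatic amino acid decarboxylase beside Grb10, 2.22-fold. Dhcr7, Commd1, H13, Trappc9 and Ago2 fell by less than 2-fold, with differences from -0.80 to -0.37, and a second probe of H13 was called in the opposite direction. Trappc9 lost its call without parthenogenetic replicate 1, and Ago2 without any 1 of the 5 arrays. Another 5 members were higher in androgenetic cells although the list names them as maternally expressed. Pon2, a lactonase, read 12.02, 12.04 and 11.97 against 9.75 and 9.67, a 4.92-fold increase with no overlap. Tnfrsf22, a decoy receptor gene reported as imprinted in placenta, was 2.13-fold higher, and Chrac1, Qpct and Cd81 were 1.42-fold, 1.40-fold and 1.37-fold higher. Chrac1 lost its call without androgenetic replicate 3 and without either parthenogenetic array. Ube3a, Nap1l4 and Tssc4 were not called (differences of 0.20, 0.16 and 0.34).

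Noncanonical imprints rest on histone methylation of the egg and keep the maternal copy silent in extraembryonic tissue. Of 5 measured genes of this kind, Slc38a4, an amino acid transporter, was 2.17-fold higher in androgenetic cells (9.34, 9.67 and 9.51 against 8.28 and 8.49). Smoc1, Jade1 and Gab1 were 2.22-fold, 1.79-fold and 1.49-fold lower, and Sfmbt2 was not called (-0.27 ± 0.199). The list thus held 1 gene with more and 3 genes with less RNA in the cells with 2 paternal genomes.

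**Figure D1:**
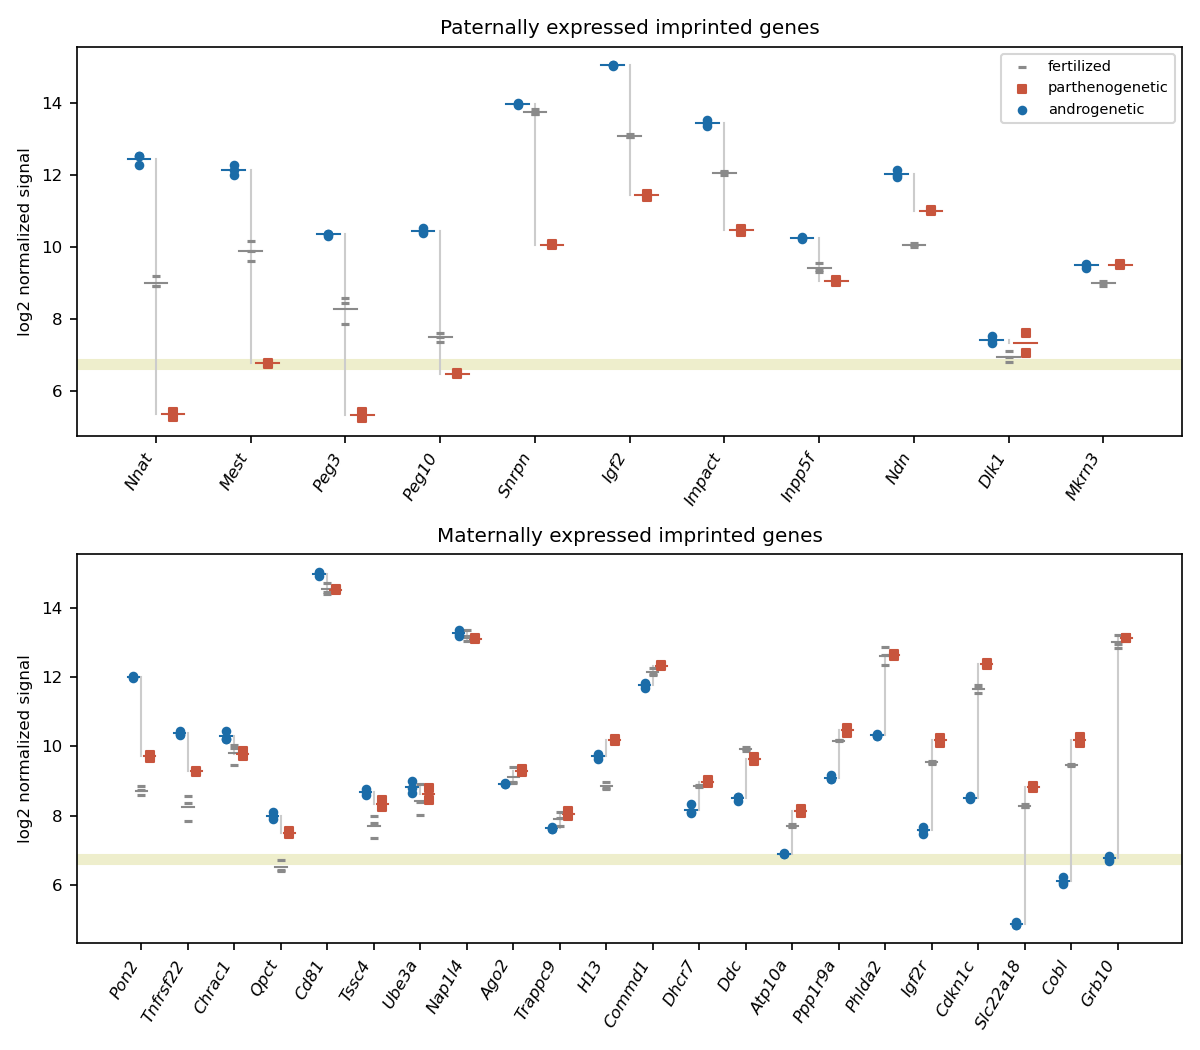
Log2 normalized signal of the measured paternally (top) and maternally (bottom) expressed imprinted genes on every array: circles androgenetic, squares parthenogenetic, dashes fertilized, short lines group means, and a pale band for the range over arrays of the signal at which detection begins. Nnat, Peg3 and Peg10 lie below the band on both parthenogenetic arrays, and Cobl and Slc22a18 lie below it on all 3 androgenetic arrays.

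X-linked genes were lower in androgenetic cells as a group. Among 275 measured X-linked genes, 152 were lower (55.3%) and 61 higher, against 36.7% lower among 7748 autosomal genes. Their median difference was -0.48, with quartiles of -1.09 and 0.12, whereas the medians of the autosomes ran from -0.13 on chromosome 17 to 0.10 on chromosome 18. Without the X-linked members of the germ cell and Rhox lists, 268 genes remained with a median of -0.47, 61 of them higher and 145 lower. Hprt, the purine salvage enzyme, was 1.89-fold lower. The median X-linked signal was 9.33 in androgenetic, 9.79 in parthenogenetic and 9.22 in fertilized cells. Autosomal medians were 9.47, 9.48 and 9.50 in the same order, so on the X chromosome the fertilized median lay nearer the androgenetic one. The X dose of the androgenetic lines was not labelled, so X dose and parental origin cannot be told apart here. No kept named probe measured Xist.

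**Figure D2:**
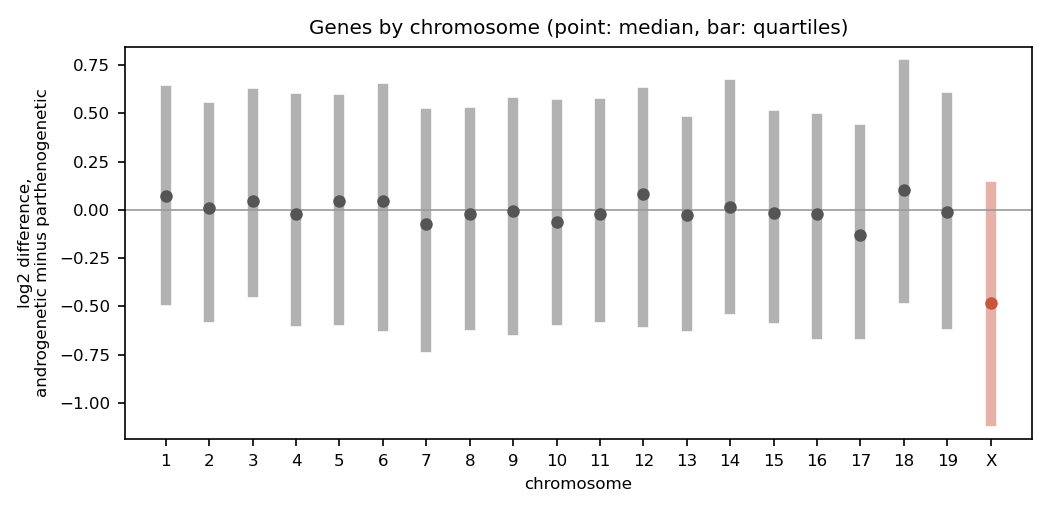
Log2 difference, androgenetic minus parthenogenetic, of the named genes on each chromosome; points are medians and bars run between the quartiles. The X chromosome, with a median of -0.48, lies below every autosome.

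The Y-linked genes gave different pictures. Eif2s3y, a Y-linked gene of translation initiation, read 10.81, 10.47 and 10.72 in androgenetic cells and 4.93 and 4.85, below detection, in parthenogenetic cells (at least 16.4-fold, adjusted p = 4.34e-09). The Uty probe read 7.37, 7.49 and 7.51 against 6.65 and 7.04 and was detected in parthenogenetic cells, which are labelled female and should hold no Uty transcript. Its difference of 0.61 ± 0.15 is therefore not read as a level of Uty.

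**Figure D3:**
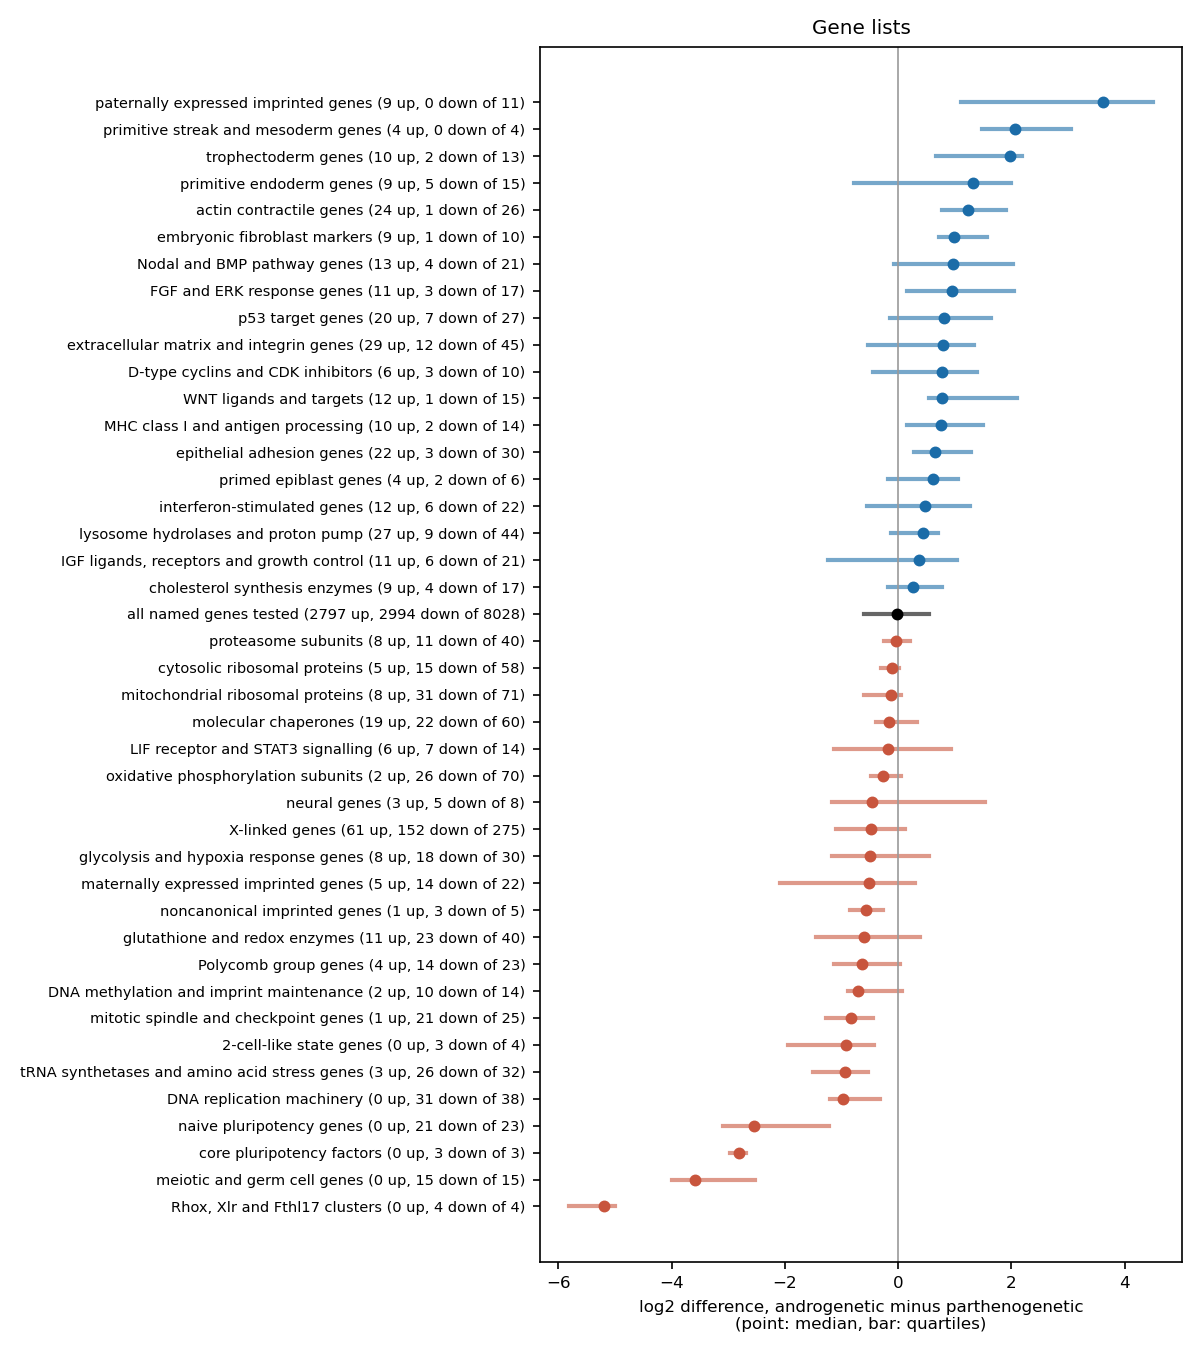
Log2 difference, androgenetic minus parthenogenetic, over the measured members of each gene list with at least 3 members; points are medians, bars run between the quartiles, and the counts give members called higher (up) or lower (down). Paternally expressed imprinted genes stand at 3.62 and the Rhox, Xlr and Fthl17 clusters at -5.20, with all named genes at -0.02.

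The pluripotency network was lower in androgenetic cells, although the cells still detected most of it. Pou5f1, the POU factor required for pluripotency, read 11.10, 11.03 and 11.08 against 13.63 and 13.66, a 5.96-fold decrease (adjusted p = 8.21e-08). Sox2, its partner on DNA, read 8.67, 8.61 and 8.78 against 11.73 and 11.90 (8.70-fold lower), and Nanog, a homeodomain factor, read 10.79, 10.91 and 10.82 against 13.75 and 13.55 (7.02-fold lower). In all of these every androgenetic array lay below both parthenogenetic arrays. Of the 8 ES cell markers Pou5f1, Sox2, Nanog, Zfp42, Esrrb, Dppa5a, Fgf4 and Tdgf1, all were detected on both parthenogenetic arrays. Fgf4 was detected on none of the androgenetic arrays, and the other 7 on all 3. In RNA from whole cultures, fewer cells of a type and less RNA per cell cannot be told apart.

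Genes of the naive state, the ground state of the preimplantation epiblast, followed the same direction. Of 23 measured, 21 were lower and 0 higher, with a median of -2.54. Tcl1, an activator of Akt, read 7.16, 7.06 and 7.16 against 12.32 and 12.19 (35.1-fold lower). Fgf4, the growth factor that ES cells secrete, and Pecam1, an adhesion molecule of naive cells, were both at least 11.5-fold lower. Fbxo15, Esrrb, Gdf3, Utf1, Klf2, Klf4, Zfp42 and Nr5a2 fell between 17.7-fold and 5.80-fold. Klf5, Tbx3 and Trim28 moved less, with differences of -0.60, -0.63 and -0.89. Sall4 and Rif1 were not called (-0.08 ± 0.1 and -0.60 ± 0.255).

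Of 6 measured primed epiblast genes 4 were higher and 2 lower, with a median of 0.61, or 0.19 with the 3 genes undetected in parthenogenetic cells at their bound. Otx2, a factor of the formative and primed epiblast, was 8.19-fold lower in androgenetic cells, and Dnmt3b, a de novo DNA methyltransferase, 1.36-fold lower. Pou3f1 was 1.53-fold higher, and Fgf5 and Sall2, undetected in parthenogenetic cells, rose at least 1.24-fold (Fgf5) and at least 2.77-fold (Sall2). Sox4 was called higher, and 2 of the 3 androgenetic arrays detected it. Among 4 measured genes of the 2-cell-like state, which a small share of ES cells enters, 3 were lower and 0 higher. Zscan4c, a telomere factor of that state, read 5.44, 5.49 and 5.51, below detection, against 9.32 and 9.34 (at least 6.29-fold lower).

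Of 32 listed meiotic and germ cell genes 15 were measured, and these were lower in androgenetic cells. For 11 of the 15 no androgenetic array detected the gene, so that they were kept through the parthenogenetic arrays and their direction was nearly fixed by the filter. The other 4 were Tdrd12, Stag3, Tex19.1 and Rec8. Smc1b and Stag3 are cohesin subunits of meiotic chromosomes. Smc1b read 4.98, 4.93 and 4.89, below detection, against 10.75 and 10.60 (adjusted p = 1.2e-09). Stag3 read 7.42, 7.58 and 7.38 against 11.95 and 11.93 (22.3-fold lower). Tdrd12 and Piwil2, of the piRNA pathway that silences transposons, were 27.5-fold and at least 6.80-fold lower. Tex19.1, a germline gene active in pluripotent cells and placenta, was 12.1-fold lower, and Dazl, an RNA-binding protein of germ cells, at least 2.85-fold lower. Rec8, a meiotic cohesin subunit, was 1.77-fold lower.

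The promoter of Stag3 is shown because germ cell genes of this kind often carry E-box and E2F motifs close to their start. The RefSeq window on GRCm38.p6 spans 250 bases before to 50 bases after the start. Capitals mark CACGTG (the E-box) and TCCCGC (the E2F core), searched on both strands. In Stag3 the matches do not overlap each other.
Stag3 (chr5:138280259-138280558, plus strand): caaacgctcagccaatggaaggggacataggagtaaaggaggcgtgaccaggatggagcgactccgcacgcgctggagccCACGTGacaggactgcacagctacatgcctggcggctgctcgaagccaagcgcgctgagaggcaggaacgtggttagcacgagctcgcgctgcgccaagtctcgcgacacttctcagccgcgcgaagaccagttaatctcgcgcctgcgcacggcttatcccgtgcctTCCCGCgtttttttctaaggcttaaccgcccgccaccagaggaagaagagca
Among 13 members with a promoter in the table, 5 held CACGTG (38.5%) and 6 held TCCCGC (46.2%). Over 27025 promoters the shares were 7.24% and 20.0%, and over 6577 promoters of the genes tested 10.4% and 36.9%. A match describes the letters of the window and does not show that a factor binds there.

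Of 21 listed X-linked genes of the Rhox, Xlr and Fthl17 clusters, which hold reproductive homeobox and germ cell genes, 4 were measured. These, Xlr4a, Rhox9, Rhox5 and Rhox6, were all lower, with a median of -5.20. Of these, Xlr4a was detected on no androgenetic array. Xlr4a, of a family with members imprinted in mouse brain, read 5.68, 5.90 and 5.52, below detection, against 13.25 and 13.27 (at least 95.9-fold lower). Rhox9 read 7.67, 7.82 and 7.68 against 12.95 and 12.96, and Rhox5 read 9.45, 9.49 and 9.65 against 14.72 and 14.70, 37.4-fold and 36.2-fold decreases. Rhox6 was detected on 1 of 3 androgenetic arrays (6.49, 6.86 and 6.45) and on both parthenogenetic arrays (11.03 and 11.09). Fertilized cells stood between the groups for these genes, at means of 7.19 for Xlr4a, 9.78 for Rhox9, 11.88 for Rhox5 and 8.24 for Rhox6. Fthl17f, a ferritin-like gene on the X chromosome that was not among these 4, read 5.19, 5.36 and 5.14, below detection, against 10.93 and 10.95. Genes of these clusters are close copies of each other, so a probe may read more than 1 of them.

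**Figure D4:**
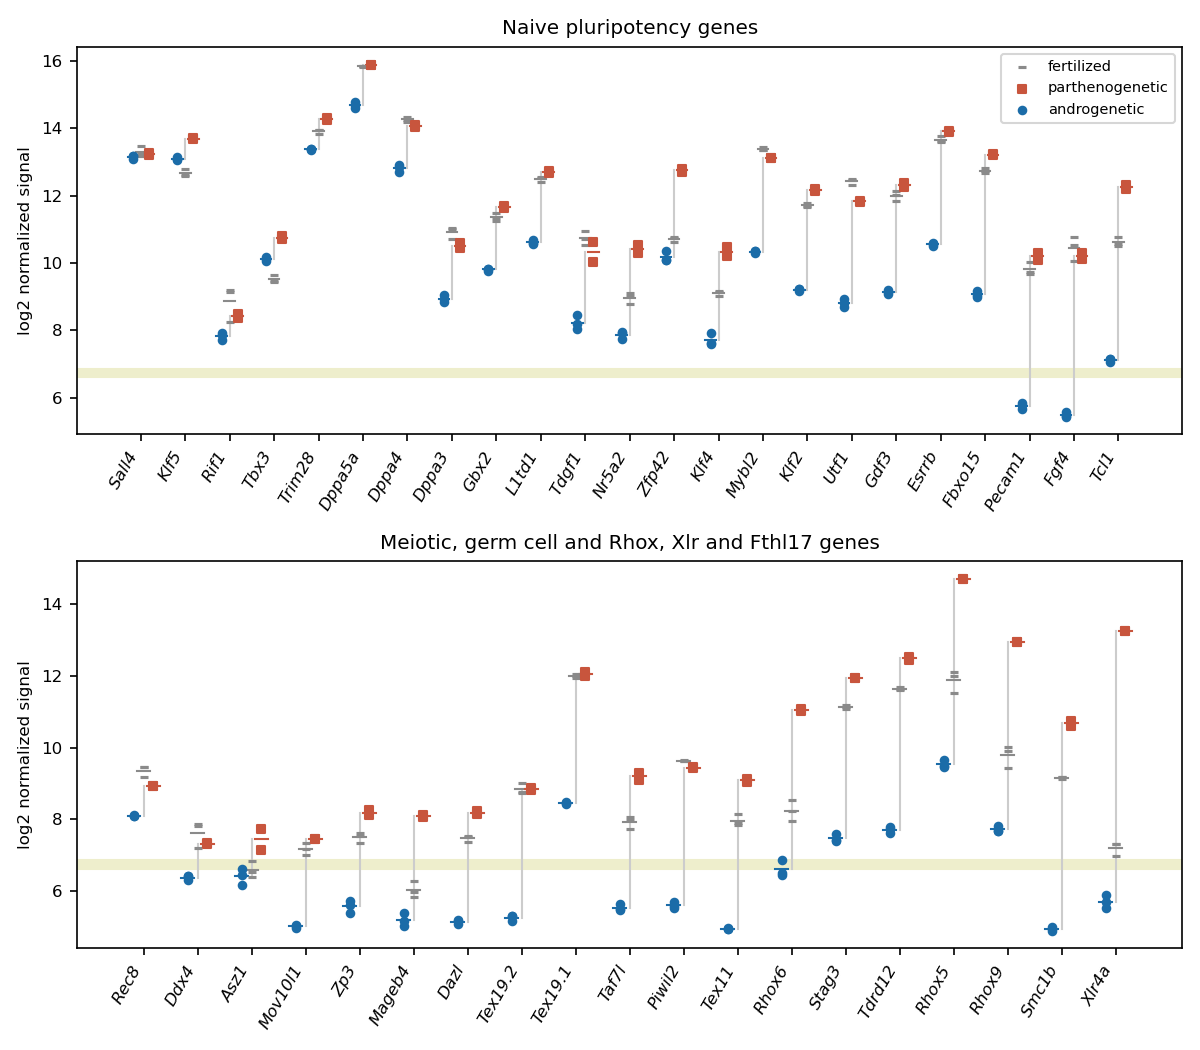
Log2 normalized signal of the naive pluripotency genes (top) and of the measured meiotic, germ cell, Rhox and Xlr genes (bottom) on every array: circles androgenetic, squares parthenogenetic, dashes fertilized, short lines group means, pale band the range over arrays where detection begins. Each gene lies lower on the androgenetic than on the parthenogenetic arrays, including Sall4 and Rif1, which were not called.

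WNT ligands and targets were higher in androgenetic cells. WNT ligands stabilise beta-catenin, which acts with TCF factors on target genes and supports ES cell self-renewal. Of 15 measured genes, 12 were higher and 1 lower, with a median of 0.77. Among the ligands, Wnt6 had a mean of 11.04 ± 0.0378 (SD, n = 3) against 6.30 and 6.52, below detection (at least 21.3-fold, adjusted p = 2.22e-08). Wnt4 was 6.72-fold, Wnt7a 2.14-fold and Wnt7b 1.59-fold higher. Among the targets, Sp5, a repressor that answers WNT signals, read 12.73, 12.83 and 12.70 against 6.66 and 6.70. Axin2, a feedback inhibitor of the pathway, read 10.73, 10.82 and 10.64 against 6.90 and 6.90. The parthenogenetic values of both lay near the start of detection. Their differences of 6.07 ± 0.145 and 3.83 ± 0.0874 were 5.21 and 3.12 without background correction. Ctnnb1, beta-catenin itself, was 1.37-fold higher, Tcf7l1 and Apc were not called (-0.05 and -0.15), and Nkd2, a WNT antagonist, was at least 1.84-fold lower. Ccnd1 was 1.71-fold higher with a second probe called the other way.

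The Sp5 promoter window is shown since Sp5 had the second largest fitted increase of all named genes. Capitals mark CTTTGAT, a TCF site, searched on both strands with no overlap with another motif.
Sp5 (chr2:70474673-70474972, plus strand): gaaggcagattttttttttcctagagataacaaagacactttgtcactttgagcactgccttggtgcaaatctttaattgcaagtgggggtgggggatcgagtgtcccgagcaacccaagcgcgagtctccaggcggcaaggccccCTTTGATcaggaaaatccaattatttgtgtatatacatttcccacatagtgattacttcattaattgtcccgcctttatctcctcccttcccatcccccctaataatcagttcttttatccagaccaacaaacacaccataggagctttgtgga
Of 10 members of the WNT list with a promoter in the RefSeq table, Sp5 alone held CTTTGAT, against 3.72% of all promoters and 2.63% of promoters of tested genes.

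In the Nodal and BMP list, 13 of 21 genes were higher and 4 lower, with a median of 0.98. Bmp4 read 12.81, 12.83 and 12.75 against 10.74 and 10.82 (4.06-fold higher). Id1, Id2 and Id3, inhibitors of differentiation that BMP induces, were 2.69-fold, 2.89-fold and 5.58-fold higher. Msx1, a homeobox target of BMP, was at least 17.2-fold higher. The signal transducers Smad1, Smad2, Smad3 and Smad5 were higher by 1.92-fold to 2.23-fold. On the Nodal side, Lefty1, an inhibitor of Nodal, was 5.01-fold lower, and its co-receptor Tdgf1 4.31-fold lower. Nodal itself was 1.27-fold lower, a call lost without any 1 androgenetic or parthenogenetic array except androgenetic replicate 1, and Lefty2 was not called (0.11 ± 0.0921).

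Of 17 measured genes of the FGF and ERK response, 11 were higher and 3 lower, with a median of 0.95. Fos read 10.82, 10.79 and 10.77 against 8.48 and 8.26 (5.36-fold higher), Egr1 was 4.34-fold and Phlda1 5.41-fold higher, and Jun was at least 5.95-fold higher. The phosphatases Dusp4 and Dusp6, which switch off ERK, were 4.08-fold and 1.94-fold higher. Etv4 and Etv5, ETS factors downstream of FGF, were 2.45-fold and 3.08-fold lower, and the ligand Fgf15 fell at least 1.63-fold. The ETS factor Etv1 was not called (0.26), nor were the feedback inhibitors Spry4 and Spred1 (0.16 and 0.16).

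LIF, the cytokine that keeps mouse ES cells undifferentiated, signals through Lifr, Il6st, Jak kinases and Stat3. The list had no common direction, with 6 genes higher, 7 lower and a median of -0.19 that changed sign under 2 alternatives. Lifr was at least 1.31-fold lower and Il6st 1.63-fold lower. Jak2 read 9.88, 10.01 and 10.07 against 7.98 and 7.94 (4.07-fold higher), Ptpn11 was 2.09-fold and Stat3 1.38-fold higher. The feedback inhibitor Socs3 and the kinase Pim3 were 2.69-fold and 2.84-fold lower, while Junb was 2.21-fold and Myc at least 1.28-fold higher. Tyk2, another Jak kinase, was 1.58-fold lower, and Pim1 was not called (-0.15).

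Genes of the trophectoderm, the outer layer of the blastocyst that forms placenta, were higher in androgenetic cells in 10 of 13 cases and lower in 2, with a median of 1.98. Gata2 and Gata3, transcription factors of this layer, read 9.12, 9.12 and 9.09 against 6.94 and 7.03, and 9.03, 8.92 and 9.26 against 6.99 and 6.76 (4.36-fold and 4.57-fold). The keratins Krt8, Krt18, Krt7 and Krt19 were 5.13-fold, 5.67-fold, 3.20-fold and 3.93-fold higher. Eomes, a T-box factor of trophoblast and primitive streak, was at least 5.17-fold higher. Against this direction, Rhox6, a homeobox gene of placenta, was lower, with 6.49, 6.86 and 6.45 against 11.03 and 11.09 and detection on 1 of the 3 androgenetic arrays. Tfap2c was 1.54-fold lower and Ets2 was not called (-0.18). No kept named probe gave a value for the rest of the 22 listed genes.

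The primitive endoderm list was mixed, with 9 of 15 genes higher and 5 lower. Gata6, a factor that specifies this layer, read 9.47, 9.40 and 9.42 against 5.89 and 5.76 (at least 6.97-fold higher). Foxq1 was at least 12.4-fold, Dab2, an endocytic adaptor, 7.91-fold, and the basement membrane collagens Col4a1 and Col4a2 3.62-fold and 3.64-fold higher. Rhox5, Apoe, Amn, Lama1 and Lamc1 were lower. The median was 1.32, and 0.73 with undetected genes at their bounds. The summed signal of the list went the other way, from 28949 to 30193 in androgenetic and from 45959 to 46699 in parthenogenetic cells. Rhox5, also in the Rhox list, read 9.45, 9.49 and 9.65 against 14.72 and 14.70. It had the highest parthenogenetic signal of the list and made the largest part of that sum. A sum without Rhox5 was not taken. Of 20 listed primitive streak and mesoderm genes 4 were measured, and all 4 were higher (34.8% of all genes were). Msx1 was detected on neither parthenogenetic array, so it was kept through the androgenetic arrays alone. Gsc, the organizer homeobox gene, read 9.44, 9.43 and 9.40 against 7.01 and 6.72 (5.88-fold). Snai1 and Cdx1 were called higher and detected on 1 of the parthenogenetic arrays. Of 8 neural genes 3 were higher and 5 lower. Gap43, of growing axons, was 9.63-fold higher, and Mapt, which binds microtubules, 14.1-fold lower.

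Markers of embryonic fibroblasts, which can serve as feeder cells, moved with the groups. Of 10 measured markers of 25 listed, 9 were higher and 1, Thy1, lower in androgenetic cells. Their summed normalized signal ran from 15227 to 15930 in androgenetic, 6111 to 6608 in parthenogenetic and 4438 to 4748 in fertilized cells. None was undetected in androgenetic or parthenogenetic cells. Col5a1 read 12.18, 12.10 and 12.12 against 10.30 and 10.48, and Vim 12.40, 12.46 and 12.57 against 10.67 and 10.93. Col1a1, detected on 1 of 2 parthenogenetic arrays, read 8.23, 8.27 and 8.55 against 6.59 and 6.74. The part of such cells in the lineage, matrix and actin results was not tested. None of the 12 listed blood cell markers had a kept named probe.

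Genes of DNA methylation, imprint maintenance and Polycomb were mostly lower in androgenetic cells. Of 14 genes of DNA methylation and imprint maintenance, 10 were lower and 2 higher, with a median of -0.70. Dnmt3l, the cofactor of de novo methylation in germ cells, read 11.07, 11.24 and 11.20 against 14.81 and 14.84 (12.6-fold lower). The maintenance methyltransferase Dnmt1 and its partner Uhrf1 were 1.86-fold and 1.82-fold lower, and Trim28, which protects imprints, 1.86-fold lower. Dppa3, which shields the maternal genome from demethylation in the zygote, was 2.99-fold lower. Mbd1, a reader of methylated DNA, was 2.41-fold higher. Among 23 Polycomb genes 14 were lower and 4 higher. Phc1, Cbx7, Mtf2, Pcgf6 and the methyltransferase Ezh2 were 3.41-fold, 2.91-fold, 2.75-fold, 2.60-fold and 1.93-fold lower, while Phc2, a relative of Phc1, was 3.91-fold higher.

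Targets of p53, which halts the cell cycle after damage, were higher in 20 of 27 cases and lower in 7, with a median of 0.81. Cdkn1a, the inhibitor p21, read 13.36, 13.24 and 13.25 against 10.94 and 10.95 (5.05-fold higher). The stress kinase gene Plk2 rose 7.50-fold. Fas, which triggers apoptosis at the cell surface, rose at least 7.02-fold. Mdm2, which degrades p53, Ccng1 and Apaf1 were 2.80-fold, 2.87-fold and 3.14-fold higher. The repair genes Ddb2 and Xpc, and Sesn1 and Rrm2b, were lower by 3.70-fold, 1.63-fold, 2.15-fold and 2.03-fold.

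The cyclin-dependent kinase inhibitors did not share a direction. Cdkn1a, Cdkn2a (1.72-fold) and Cdkn2b (11.61, 11.60 and 11.49 against 8.81 and 8.94, 6.47-fold) were higher, and the imprinted Cdkn1c was lower. Ccnd2 was 2.97-fold higher and Ccnd3 2.06-fold lower. Replication genes were lower in 31 of 38 cases and higher in 0, with a median of -0.97. All 6 measured subunits of the Mcm helicase, which unwinds origins, were lower (median -0.97). The polymerase subunits Pold2, Pole and Pold1 were 4.72-fold, 3.41-fold and 2.71-fold lower. Mitotic genes were lower in 21 of 25 cases and higher in 1. Examples are the kinase Plk1 (2.43-fold), separase Espl1 (3.08-fold), the checkpoint kinase Bub1b (2.74-fold) and Aurka (1.79-fold). Mad2l1, Bub3 and Tpx2 were not called.

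In glycolysis and the hypoxia response, 18 of 30 genes were lower and 8 higher, with a median of -0.50. Pfkp, the platelet form of phosphofructokinase, read 9.19, 9.25 and 9.23 against 12.18 and 12.31 (8.13-fold lower). Pdk1, which closes the entry to the citric acid cycle, Vegfa and Egln3 were 4.88-fold, 4.59-fold and 4.26-fold lower. The glucose transporters Slc2a1 and Slc2a3 were 2.13-fold and 1.69-fold higher, and Hif1a 1.72-fold higher. Pfkfb4, Bnip3l and Ddit4 were 2.30-fold, 1.78-fold and 1.62-fold higher, so genes of the hypoxia response went in both directions. Gapdh was not called (0.01 ± 0.0738). Of 27 promoters 14 held ACGTG (51.9%), the core that hypoxia-inducible factor recognises and that lies within every CACGTG, against 26.4% of promoters of tested genes.

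Subunits of oxidative phosphorylation were lower in 26 of 70 cases (37.3% of all genes were lower) and higher in 2, with a median of -0.26 and few large differences. Cox7b, on the X chromosome, was 2.54-fold lower. Cholesterol synthesis had 9 of 17 genes higher and 4 lower. Hsd17b7, a sterol reductase, was 4.63-fold, Hmgcs1 1.95-fold and Cyp51 1.57-fold higher, and Ebp and the imprinted Dhcr7 1.77-fold and 1.74-fold lower.

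Glutathione enzymes contained some of the deepest decreases. Of 40 genes 23 were lower and 11 higher, with a median of -0.60. Gstp2, a glutathione transferase, read 6.27, 6.36 and 6.12, below detection, against 13.38 and 13.44 (at least 107-fold lower, adjusted p = 1.85e-09). Gpx2, a glutathione peroxidase, read 5.53, 6.13 and 5.73 against 11.27 and 11.47 (at least 25.9-fold lower). Of 16 transferases 11 were lower and 4 higher. Nqo1 and Gclm were 4.34-fold and 4.33-fold lower, Hmox1 was 1.95-fold higher, and the oxidative stress factor Nfe2l2 was not called (-0.30). Gpx8, a peroxidase of the endoplasmic reticulum, was 4.00-fold higher. The transferases Gstp1, Gstp2 and Gstp3 are close copies, and their probes may share targets.

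The amino acid response was lower in androgenetic cells. When amino acids run short, the kinase Gcn2 favours translation of Atf4, which activates genes for amino acid synthesis, import and tRNA charging. Of 32 measured genes, 26 were lower and 3 higher, with a median of -0.94. Chac1, which degrades glutathione, read 7.66, 7.56 and 7.46 against 12.26 and 12.20 (25.5-fold lower, adjusted p = 2.3e-09). Trib3, a pseudokinase that restrains Atf4, read 5.94, 6.04 and 6.42, below detection, against 8.94 and 9.17 (at least 5.22-fold lower). The groups did not overlap in either gene. The serine and folate enzymes Psat1, Mthfd2 and Shmt2 were 4.33-fold, 4.58-fold and 2.51-fold lower. Slc7a5, a leucine importer, was 5.01-fold lower. Asns, asparagine synthetase, was 1.65-fold and Atf4 itself 1.80-fold lower. Of 14 tRNA synthetases 12 were lower and 0 higher, with Sars at 2.86-fold and Lars at 2.39-fold among the larger decreases, and Rars and Qars were not called.

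Not all members followed. Atf3, a stress factor, read 8.45, 8.39 and 8.40 in androgenetic cells and 6.56 and 6.92 in parthenogenetic cells, where 1 of 2 arrays detected it, and was called higher. Sesn2 and Vldlr were called higher at 1.25-fold and 1.29-fold, calls lost without 1 array in 5 of 5 fits for Sesn2 and 4 of 5 for Vldlr, and Cebpb was not called (0.16). Promoters of genes that were lower (Chac1, Trib3 and Asns) and of Atf3, which was higher, are shown because all of them hold a copy of TGATGNAA, an amino acid response element, on 1 of the strands. Capitals mark the match, which overlaps no other motif searched.
Chac1 (chr2:119350992-119351291, plus strand): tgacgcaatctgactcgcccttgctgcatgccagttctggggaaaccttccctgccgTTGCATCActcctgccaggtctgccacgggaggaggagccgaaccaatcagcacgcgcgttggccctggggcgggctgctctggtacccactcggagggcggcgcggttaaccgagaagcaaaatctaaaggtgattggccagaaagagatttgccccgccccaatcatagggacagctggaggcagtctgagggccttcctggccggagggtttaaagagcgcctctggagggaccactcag
Trib3 (chr2:152344011-152344310, minus strand): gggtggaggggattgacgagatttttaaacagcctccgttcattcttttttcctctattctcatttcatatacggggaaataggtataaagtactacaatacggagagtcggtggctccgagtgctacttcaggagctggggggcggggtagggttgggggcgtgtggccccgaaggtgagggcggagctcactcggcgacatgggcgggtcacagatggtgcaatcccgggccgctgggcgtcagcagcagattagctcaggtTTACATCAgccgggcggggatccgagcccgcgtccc
Asns (chr6:7693160-7693459, minus strand): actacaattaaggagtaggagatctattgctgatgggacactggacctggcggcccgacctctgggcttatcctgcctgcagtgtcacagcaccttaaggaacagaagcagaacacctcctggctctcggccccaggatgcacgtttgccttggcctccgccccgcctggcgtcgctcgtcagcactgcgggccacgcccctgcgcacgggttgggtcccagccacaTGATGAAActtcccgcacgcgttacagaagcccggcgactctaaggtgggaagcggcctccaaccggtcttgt
Atf3 (chr1:191183284-191183583, minus strand): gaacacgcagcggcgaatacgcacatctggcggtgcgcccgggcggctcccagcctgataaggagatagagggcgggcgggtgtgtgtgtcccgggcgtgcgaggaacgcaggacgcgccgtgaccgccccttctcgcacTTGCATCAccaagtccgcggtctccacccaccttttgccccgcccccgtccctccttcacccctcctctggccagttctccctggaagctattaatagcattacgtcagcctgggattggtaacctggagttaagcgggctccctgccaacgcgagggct
Of 24 members with a promoter in the table, 9 held TGATGNAA (37.5%), against 4.06% of all promoters and 2.25% of promoters of tested genes. These were Chac1, Trib3, Nupr1, Tars, Iars, Gars, Aars, Asns and Atf3, so genes with the motif were found in both directions. The windows are from RefSeq on GRCm38.p6 and run 5′ to 3′ along each gene's strand.

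**Figure D5:**
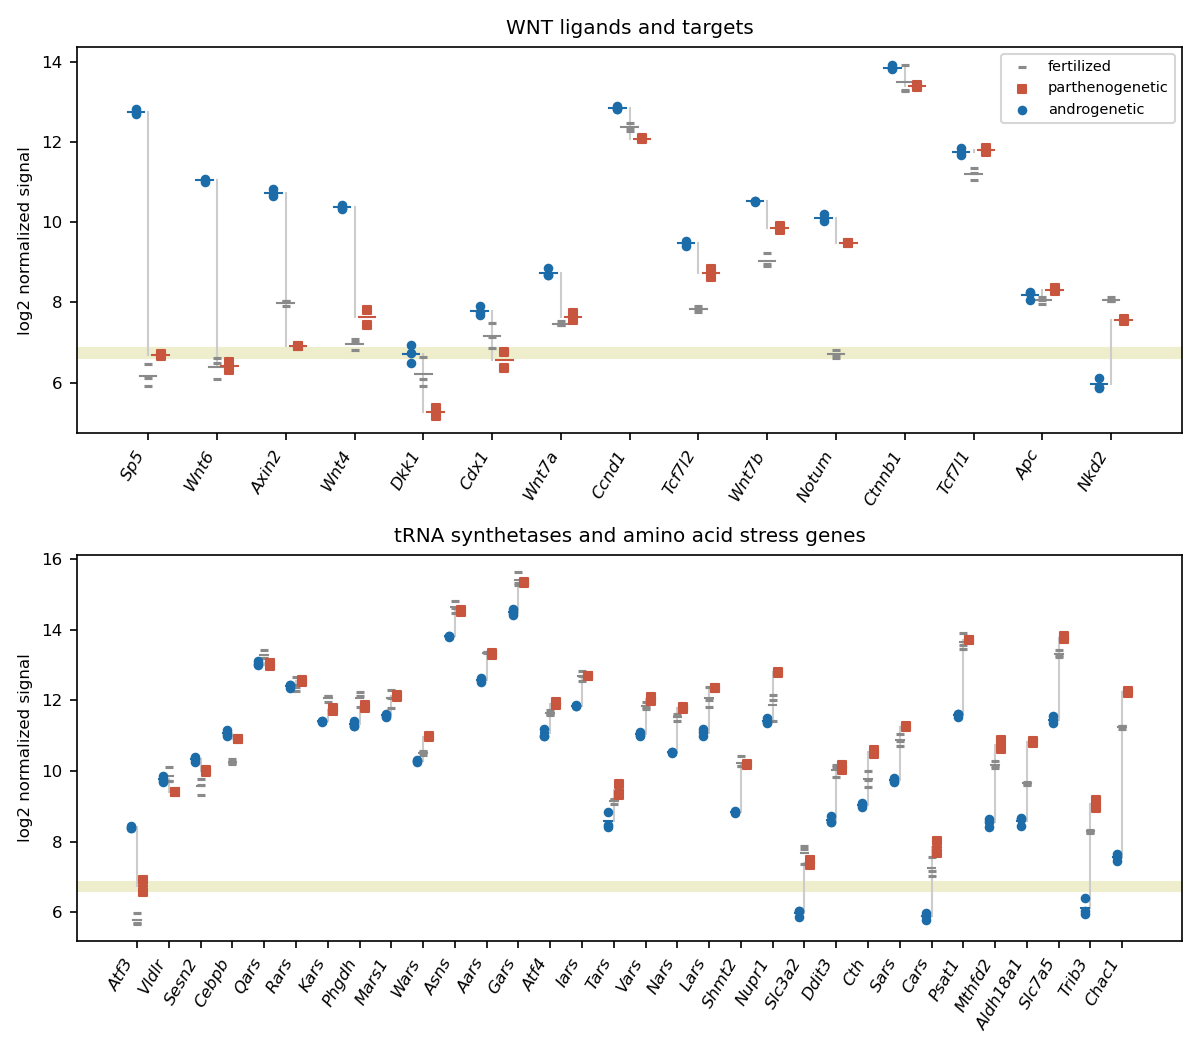
Log2 normalized signal of the WNT ligands and targets (top) and of the tRNA synthetases and amino acid stress genes (bottom) on every array: circles androgenetic, squares parthenogenetic, dashes fertilized, short lines group means, pale band the range over arrays where detection begins. Sp5, Wnt6 and Axin2 lie higher on the androgenetic arrays than on the parthenogenetic and fertilized arrays, and Chac1 and Trib3 lower.

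Ribosomal and proteasome genes were called less often than all genes (72.1%). Of 58 cytosolic ribosomal protein genes 15 were lower and 5 higher (median -0.10), and the median was -0.35 when arrays were scaled to their medians. Mitochondrial ribosomal proteins were lower in 31 of 71 cases and higher in 8, with Mrps6 3.76-fold higher. Proteasome subunits were near balance, with 8 of 40 higher and 11 lower. Chaperones had 19 of 60 higher (31.7%) and 22 lower (36.7%), near the shares over all genes (34.8% and 37.3%). Among them were Bag3 (2.83-fold higher) and Dnajc6 (7.98-fold lower). Lysosomal genes were higher in 27 of 44 cases (61.4%) and lower in 9 (20.5%), with a median of 0.44. The protease Ctsc read 10.83, 10.82 and 10.84 against 8.62 and 8.65 (4.60-fold higher), and 9 of 14 proton pump subunits were higher and 0 lower.

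Antigen processing genes were higher in 10 of 14 cases and lower in 2. Among those higher, Psmb8, Tapbpl and Tap1 were detected on no parthenogenetic array. These 3 were kept through the androgenetic arrays alone, and their direction was nearly fixed by the filter. B2m, the light chain of MHC class I, read 13.10, 13.10 and 13.19 against a mean of 11.02 ± 0.0349 (SD, n = 2), 4.32-fold higher. Tap2 and Tapbp, which load peptides, were 3.02-fold and 3.03-fold higher, and Tap1 at least 2.13-fold higher. H2-T23, a nonclassical class I gene, was 2.34-fold lower. The other lower member, H2-Ke6 (1.82-fold), lies in the MHC region but encodes a hydroxysteroid dehydrogenase. Interferon-stimulated genes were split, with 12 of 22 higher and 6 lower. Isg15 was at least 4.86-fold, Eif2ak2 3.64-fold and Gbp2 2.51-fold higher, and Oas2 was at least 1.58-fold lower.

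Genes of the contractile actin skeleton were higher almost throughout, in 24 of 26 cases, with 1 lower (Actn4) and a median of 1.24. Zyx, zyxin of focal adhesions, read 14.68, 14.74 and 14.62 against 12.35 and 12.39 (4.96-fold). Tpm1, Tagln and Vcl were 4.23-fold, 3.96-fold and 2.87-fold higher, and Actc1 at least 3.81-fold higher. Actn4 lost its call under several alternatives. Of 45 matrix and integrin genes 29 were higher and 12 lower. Mmp14, a membrane protease, Timp2, its partner, and Itgav, an integrin chain, were 5.21-fold, 4.93-fold and 5.20-fold higher. Collagens were split, 8 of 12 higher and 4 lower. Col26a1 and Col17a1, undetected in androgenetic cells, fell at least 3.21-fold (Col26a1) and at least 2.85-fold (Col17a1). The fibroblast markers Col1a1, Col5a1, Fbln2, Lox and Mmp2 are also members of the matrix list, and Vim of the actin list. Without these 5, 24 of 40 matrix genes were higher and 12 lower, and without Vim 23 of 25 actin genes were higher.

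Epithelial adhesion genes were higher in 22 of 30 cases and lower in 3. Cldn6 and Cldn4, tight junction proteins, were 3.96-fold and 2.13-fold higher and Cdh1, E-cadherin, 1.49-fold higher. Zeb2, a repressor of Cdh1, was at least 5.18-fold higher, while Zeb1 was 1.45-fold lower. In growth control, the IGF binding proteins Igfbp3 and Igfbp4 read 11.94, 11.90 and 11.95 against 8.44 and 8.69, and 13.05, 13.04 and 13.02 against 9.38 and 9.48 (10.3-fold and 12.2-fold higher). Irs2, an adaptor of the insulin and IGF receptors, was 5.20-fold and Igf1r 2.02-fold higher. Igfbp2 and Mtor were 2.75-fold and 2.37-fold lower. Of 21 genes 11 were higher and 6 lower, and Grb10, Cdkn1c, Igf2r and Phlda2 were among those lower.

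Outside the lists, the largest differences included genes of other functions. Tmprss2, a serine protease of epithelia, read 11.17, 11.26 and 11.26 against 5.46 and 5.35, below detection (at least 24.4-fold higher). Flrt3, an adhesion protein that modulates FGF signalling, was 21.9-fold higher (11.71, 11.82 and 11.76 against 7.33 and 7.29), and Pik3r3, a regulatory subunit of phosphoinositide kinase, 16.2-fold higher (11.27, 11.23 and 11.31 against 7.25 and 7.25). Aire, a regulator of self antigens in thymus, read 5.05, 5.16 and 4.93, below detection, against 10.59 and 10.58 (at least 15.0-fold lower). The secreted factors Cxcl12 and Edn1 and the carbonic anhydrase Car2 were 7.35-fold, 7.21-fold and 6.06-fold higher.

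Fertilized cells, with a genome from each parent, were closer to the parthenogenetic cells. Among the 2212 genes at least 2-fold apart, the fertilized mean lay nearer the parthenogenetic mean for 1928 (87.2%) and nearer the androgenetic mean for 284. It lay between both for 1358, above both for 428 and below both for 426. Pou5f1 read 13.32, Chac1 11.24 and Krt8 13.26 in fertilized cells, near the parthenogenetic values, whereas Igf2 at 13.08 and Mest at 9.88 lay between. Edn1 (6.74) and Car2 (7.47) were below both groups.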

How the data were processed

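RNA of 8 ES cell samples was read on Illumina BeadChips, with an array for each and no slide given in the labels. Per the labels' protocols, extraction used the mirVana kit and labelling the TotalPrep kit, and arrays were read with BeadStudio 3.1.3, per the submitters' processing notes. The authors deposited a table of non-normalized intensity values for 25697 probes with a detection p-value for each. They also deposited a table of log2 values for 12891 probes, which were rebuilt to within 0.000742 by quantile normalization of log2 signals, keeping probes below 0.05 in detection p on 4 or more arrays. No per-sample column was left out.

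The intensities of all 8 arrays were normalized with neqc of limma 3.58.1 in R 4.3.3 (background from detection p-values, quantile normalization, offset 16). This compresses folds of dim genes. The filter asked for a detection p below 0.01 on 2 or more of the 5 androgenetic and parthenogenetic arrays and left 11961 probes. The platform annotation named 10965 and left 996 unnamed, of which 324 lie outside the authors' table. For 2114 genes with several kept probes, the probe of highest average signal stood for the gene, and for 40 genes probes were called in opposite directions. The limma model held 3 group means over the 8 arrays, leaving 5 residual degrees of freedom, and eBayes gave the test of the contrast. The fit was tested on simulated data. The precision is limited by the number of arrays. The median SD within groups was 0.125.

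Gene lists, members and named genes were chosen with earlier results of these data known, so no list is independent evidence. Lists are described by counts and medians, without a test. The rule for named genes took the 10 top increases and 10 top decreases without overlap between arrays, all members of the imprinted, Y-linked and core pluripotency lists, up to 3 increases and 3 decreases of each other list, and Aire, Cxcl12, Car2, Edn1 and Xlr4a. Other members are named as examples, chosen after their values were seen. Gene symbols, chromosomes and promoters came from RefSeq on GRCm38.p6. No genome or protein table was used. Alternatives were no background correction, an offset of 50, median scaling, the authors' table, other detection filters, the 5 arrays alone, the mean over probes, a replicate block, and each array left out in turn. Replicate numbers followed the passage in every group. Residuals of same-numbered androgenetic and parthenogenetic arrays correlated between -0.047 and 0.0032. This cannot decide whether the numbers pair the arrays, since the residuals of both parthenogenetic arrays mirror each other.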

Additional observations from a re-analysis of the deposited data

How the results depend on the processing

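The count of called genes stayed between 4625 and 6172 with 1 array left out and between 4818 and 6380 under the other alternatives. The count at least 2-fold apart was 1855 to 2215 and 1513 to 2254. The X-linked median minus that of all genes was -0.46 in the main setting. It was -0.39 without background correction, -0.44 with an offset of 50, -0.40 in the authors' table, -0.47 among probes detected on all 5 arrays and -0.48 to -0.41 with 1 array left out. With the replicate block it was -0.49, and 5483 of the 5791 calls were made again in the same direction. The block matches arrays by replicate number, which followed the passage.

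Of 41 list medians, 40 or 41 kept their sign under each alternative. The LIF list turned to 0.088 in the authors' table and 0.059 without a detection filter, and the primed epiblast list to -0.44 among genes detected on all 5 arrays. Mkrn3 turned to 0.011 with median scaling and 0.0021 with the block, and ran from -0.039 to 0.017 with 1 array left out. Dlk1 ran from -0.18 to 0.36 with 1 array left out. H13 and Rpl7l1 turned to 0.029 and 0.016 with the mean over probes. The causes were not tested. Requiring detection on all 5 arrays removes genes undetected in 1 group, and the paternally expressed median was then 2.08, the primitive endoderm median 0.13, the p53 median 0.53 and the MHC median 0.45. The germ cell median was -2.33 without background correction and -1.95 in the authors' table. Without parthenogenetic replicate 1 the 2-cell-like median was -0.22, and without replicate 2 the glutathione median was -0.29. Signal over background limits all folds that rest on a value near 6.60 to 6.73.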
